A study of Mus musculus with 4 samples.

Results

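A cell that divides must condense its chromosomes, attach them to the spindle, and hold the sister chromatids together until all are attached. The 49 mouse genes described here encode this machinery, and they were taken as a list of symbols covering the spindle, the kinetochore, the spindle checkpoint, condensin and cohesin. Each symbol matched 1 of the 52636 Ensembl gene IDs in the deposited count tables, and the rule uses no measured value. The list was grouped by role into 11 groups, from the checkpoint proteins to *Smchd1*, a non-canonical SMC protein.

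The kidney cells came from embryos at about E12.75, in which Eya1 marks and maintains the nephron progenitors of the cap mesenchyme. Control embryos carried Eya1CreER and the tdTomato reporter, and *Eya1*cKO embryos carried Eya1CreER, the reporter and Eya1fl/fl. Tamoxifen was given to both genotypes, and the kidneys were collected about 48 h after its start. The dissociated cells were frozen and stored. Later, tdTomato+ cells were sorted by FACS, with 5000 cells for each of 2 control and 2 *Eya1*cKO libraries. CreER is driven by the *Eya1* locus, so the controls also carried CreER at 1 *Eya1* allele, and the reporter labels cells in which *Eya1* is active and the progeny of those cells. By the sample labels 6 kidneys of each genotype were collected from 4 pregnant mice, and the study's methods give other numbers of kidneys and mice. Suspensions were combined ahead of the sort, and no label ties a library to its own embryos. *P* values therefore measure the spread between 2 libraries of 1 genotype, which may be technical.

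Most of these genes are transcribed in G2 and M phase and are silent in resting cells. Plk1, Aurora A and Aurora B are kinases that drive entry into mitosis, spindle assembly and chromosome attachment. Bub1, BubR1, Bub3 and Mad2 hold back the anaphase-promoting complex (APC/C) while any kinetochore is unattached. Condensin compacts mitotic chromosomes, whereas cohesin embraces DNA throughout the cell cycle and also folds interphase chromatin, so its subunits are expressed in cycling and resting cells alike. In the embryonic kidney, nephron progenitors and their early descendants divide often.

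Reads counted on genes ranged from 17457452 to 37999342 per library, and both *Eya1*cKO libraries were shallower than both control libraries. *Eya1*, the deleted gene, had 6612, 6420, 377 and 219 reads (189, 171, 16.7 and 12.5 CPM), listed here and below in the order control 1, control 2, *Eya1*cKO 1 and *Eya1*cKO 2. CPM are counts relative to the TMM-scaled library total, and 3 reads corresponded to between 0.0801 and 0.171 CPM. Of 8 nephron progenitor markers 7 fell, and their summed level went from 1396 to 1415 CPM in the controls to 646 to 656 CPM. *Wt1* was the marker that did not pass the test. Its estimate was positive (log2 fold change 0.23), with both *Eya1*cKO libraries above both controls and an unadjusted *P* under 0.05 by edgeR. All 8 podocyte markers rose (532 to 538 CPM in the controls, 2470 to 2482 CPM in *Eya1*cKO), as did all 8 endothelial markers (622 to 636 CPM against 1117 to 1137 CPM) and 6 of 8 stromal markers (2460.4 to 2477 CPM against 5303 to 5723 CPM). All 8 adrenal cortex markers rose from a sum of 12.7 to 19.8 CPM to 704 to 741 CPM, and all 8 sympathoadrenal markers from 5.93 to 10.1 CPM to 540.1 to 584 CPM. None of the adrenal or sympathoadrenal markers was at 0 in any library. The nephron epithelium list was split, with 2 of 8 lower and 2 higher, 2 of 8 ureteric bud markers fell (259.6 to 283 CPM against 155 to 185 CPM in sum), and 0 of the 4 tested blood and macrophage markers and 0 of the 5 tested meiotic markers passed edgeR's test (0 and 1 at an unadjusted *P* under 0.05, 0 and 0 by DESeq2). The progenitor, podocyte, endothelial, stromal, ureteric bud, adrenal cortex and sympathoadrenal levels moved with the genotype, and their part in the results below was not tested.

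Transcripts of the mitotic machinery were less abundant in the *Eya1*cKO cells, and the summed level of the members was 73.5% of that in the controls. Of the 49 members 48 passed the low-count filter and were tested, and of these 22 fell, 0 rose and 26 did not pass an adjusted *P* of 0.05 in edgeR's quasi-likelihood test. Of all 19041 genes tested, 4.41% fell and 5.15% rose. Among the 48 members, 46 had a negative log2 fold change and the median was -0.45, beside a median of 0.02 over all genes tested. At an unadjusted *P* under 0.05 there were 32 members, all of them lower, beside 14.6% of all genes tested lower and 14.2% higher. DESeq2 called 26 members lower and 0 higher, and 1281 genes lower and 1787 higher in all. In bulk RNA, fewer dividing cells and less RNA per cell cannot be told apart.

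Per library, the members summed to 9557, 9429, 6982 and 6966 CPM. Both *Eya1*cKO sums lay below both control sums, at 73.5% of the control mean (9493 ± 90.5 CPM against 6974 ± 10.8 CPM, SD, n = 2 each). An exact two-sided permutation test of 2 against 2 libraries cannot give less than *P* = 0.333, the value obtained here. As a share of all gene counts, which needs no TMM scaling, the members took 0.942%, 0.929%, 0.709% and 0.700% (95% Wilson intervals 0.939 to 0.946%, 0.926 to 0.932%, 0.706 to 0.713% and 0.696 to 0.704%, counting error only). Both *Eya1*cKO libraries were below both controls for 41 of the 48 members and above both for 0, whereas the shares over all genes tested were 30.0% and 25.3%. With 1 library left out, the log2 fold change of 14 of the 48 members moved by over 1.5 times or turned in sign, 1 of them (*Bub1b*) among the 22 called, and those values are given with each gene. The 7 members that overlapped were *Fzr1*, *Ndc80*, *Nuf2*, *Kif4*, *Prc1*, *Esco2* and *Pttg1*.

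The number of members called depended on which libraries were kept. With control 1 or control 2 left out, 0 members and 23 genes in all passed the test, and with *Eya1*cKO 1 or *Eya1*cKO 2 left out 35 and 37 members fell, and 3271 and 3482 genes fell and 4143 and 4443 rose in all, with a median log2 fold change over all genes of -0.16 and -0.11. The 2 control libraries were closer to each other than the 2 *Eya1*cKO libraries, with a median absolute log2 ratio over the members of 0.07 against 0.15. The lone library of a genotype is assumed in these fits to vary like the pair that remains.

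**Figure D1:**
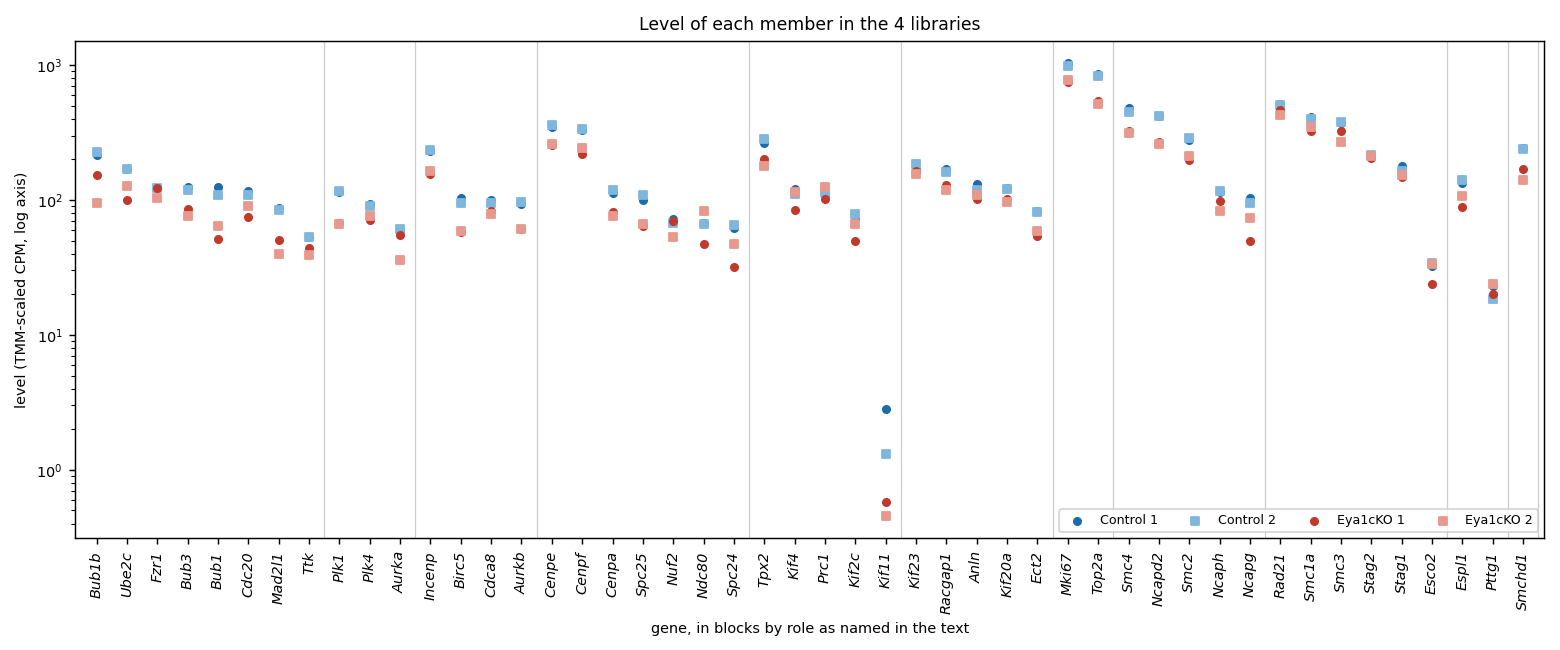
Level of the 48 tested members in TMM-scaled CPM on a log axis, 1 column per gene in blocks by role, with 1 point per library (blue for control, red for *Eya1*cKO). For 41 genes both red points lie below both blue points, and *Kif11* stands apart from the rest at 0.456 to 2.81 CPM.

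The sequence at the start of these genes carries letters known from G2 and M phase promoters. The cell cycle genes homology region (CHR), bound by the MuvB complexes, was searched as TTTGAA or TTCGAA, the CCAAT box, bound by NF-Y, as CCAAT, and E2F sites as TTTGGCGC, TTTCCCGC, TTTGCCGC or TTTCGCGC, on both strands. RefSeq promoter windows (GRCm38.p6, 250 bases before to 50 after the start) were at hand for 40 of the 49 members and for 27025 genes in all. A CHR and a CCAAT match may share an end base, and overlapping matches of different motifs were each counted. CHR letters were found in 29 of the 40 members (72.5%) beside 21.7% of all genes with a window and 16.6% of the 12256 genes tested that had one. CCAAT was also found in 29 of the 40 (72.5%), beside 41.1% of all genes and 42% of those tested, and 25 members (62.5%) held both in 1 window, beside 8.61% of all genes and 6.7% of those tested. E2F letters were found in 4 of the 40 members (10%), in 2.605% of all genes and in 4.33% of the genes tested. The CHR nearest the start lay at a median of 5 bases after it, from 138 before to 40 after, and in 24 members a CCAAT lay upstream of that CHR at a median distance of 35 bases. These matches are descriptions of letters and not of binding.

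Stretches from 150 bases before the start to 30 after it are printed for 6 members that fell and hold both motifs, for *Prc1*, which holds both and had a log2 fold change of 0.00, and for the cohesin gene *Smc3*, which holds neither in its window. Capitals mark CHR and CCAAT letters on either strand (TTCAAA is TTTGAA and ATTGG is CCAAT on the other strand), and each is written 5′ to 3′ on the strand of the gene. The places on GRCm38.p6 are chr11:99024160-99024339 on the minus strand for *Top2a*, chr2:127831830-127832009 on the minus strand for *Bub1*, chr2:69206184-69206363 on the minus strand for *Spc25*, chr1:189688057-189688236 on the minus strand for *Cenpf*, chr6:125191557-125191736 on the minus strand for *Ncapd2*, chr7:135716350-135716529 on the minus strand for *Mki67*, chr7:80294301-80294480 on the plus strand for *Prc1* and chr19:53600246-53600425 on the plus strand for *Smc3*.
Top2a: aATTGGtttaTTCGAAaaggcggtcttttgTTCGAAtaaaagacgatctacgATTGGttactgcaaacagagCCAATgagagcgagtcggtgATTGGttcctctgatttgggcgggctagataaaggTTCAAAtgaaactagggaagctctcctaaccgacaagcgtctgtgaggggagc
Bub1: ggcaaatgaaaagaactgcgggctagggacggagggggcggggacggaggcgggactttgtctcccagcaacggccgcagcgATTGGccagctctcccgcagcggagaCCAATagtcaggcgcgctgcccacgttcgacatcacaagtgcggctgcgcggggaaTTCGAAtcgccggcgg
Spc25: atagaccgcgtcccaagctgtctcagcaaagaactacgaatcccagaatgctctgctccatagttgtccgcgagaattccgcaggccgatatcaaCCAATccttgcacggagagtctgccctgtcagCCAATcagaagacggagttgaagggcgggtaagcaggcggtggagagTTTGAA
Cenpf: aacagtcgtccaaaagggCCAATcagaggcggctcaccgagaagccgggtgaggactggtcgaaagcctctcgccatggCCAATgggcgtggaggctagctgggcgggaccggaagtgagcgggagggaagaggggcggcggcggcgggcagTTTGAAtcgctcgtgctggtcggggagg
Ncapd2: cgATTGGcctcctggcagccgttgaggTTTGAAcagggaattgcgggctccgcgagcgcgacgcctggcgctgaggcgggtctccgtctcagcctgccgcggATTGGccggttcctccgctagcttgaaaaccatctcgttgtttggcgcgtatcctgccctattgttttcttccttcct
Mki67: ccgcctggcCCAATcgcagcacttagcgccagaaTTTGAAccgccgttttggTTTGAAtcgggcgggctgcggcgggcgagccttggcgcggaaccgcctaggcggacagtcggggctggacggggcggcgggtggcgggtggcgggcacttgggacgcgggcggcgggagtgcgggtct
Prc1: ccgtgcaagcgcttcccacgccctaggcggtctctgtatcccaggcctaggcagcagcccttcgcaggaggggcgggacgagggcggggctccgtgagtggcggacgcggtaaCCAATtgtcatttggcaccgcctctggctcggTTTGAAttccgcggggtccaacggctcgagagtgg
Smc3: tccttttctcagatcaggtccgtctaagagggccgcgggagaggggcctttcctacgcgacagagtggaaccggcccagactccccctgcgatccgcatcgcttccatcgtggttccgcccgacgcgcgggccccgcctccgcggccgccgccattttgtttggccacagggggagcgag

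CHR letters were found in 15 of the 18 members with a window that fell (83.3%) and in 13 of the 21 that did not pass the test (61.9%). They were in the windows of 6 of 8 checkpoint and APC/C members, in all 4 spindle motor and all 4 cytokinesis members with a window, in 3 of 4 condensin members and in 1 of 4 cohesin members, the meiotic *Rad21l*. *Top2a* had 4 CHR and 6 CCAAT matches in its window. *Mad2l1* and *Birc5*, both of which fell, held none of the 3 motifs in this window. For *Mad2l1* the whole window lay upstream of the gene start in the GENCODE annotation. Of the 40 windows, 33 had bases 20 to 50 after the start that read in a transcript of the gene. The placing of the other windows was not tested. *Incenp*, *Tpx2*, *Rad21*, *Aurkb*, *Kif20a*, *Stag2*, *Spc24*, *Esco2* and *Smc4* were not matched.

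**Figure D2:**
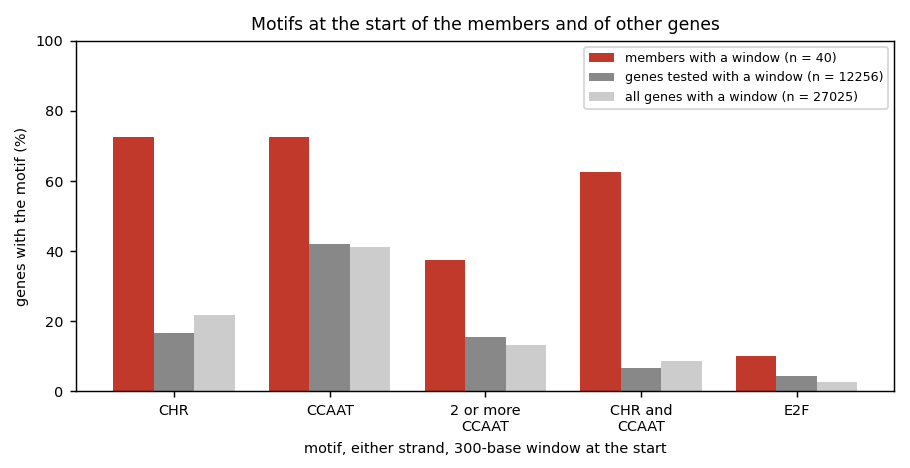
Share of genes (%) whose RefSeq window holds each motif on either strand, for the 40 members with a window (red), the 12256 genes tested with a window (dark grey) and all 27025 genes with a window (light grey, members included). CHR letters were in 72.5% of the members and 21.7% of all genes.

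Of the 8 spindle checkpoint and APC/C members 5 fell, with a median log2 fold change over the group of -0.58. *Bub1*, the kinase that brings the checkpoint to kinetochores, had 4341, 4054, 1154 and 1133 reads (124, 108, 51.1 and 64.6 CPM) and stood at 49.7% of the control mean (log2 fold change -1.02 ± 0.16, adjusted *P* = 0.0121). *Mad2l1*, which encodes the Mad2 protein that binds Cdc20, had 3065, 3138, 1135 and 692 reads (87.8, 83.8, 50.2 and 39.4 CPM), a log2 fold change of -0.92 ± 0.16 (SE) and an adjusted *P* of 0.0183. For both genes the *Eya1*cKO libraries were low and the control libraries high, with no overlap. *Bub1b*, which encodes BubR1, had 7493, 8548, 3467 and 1666 reads (215, 228, 153 and 94.97 CPM), a log2 fold change of -0.81 ± 0.19 (SE) and an adjusted *P* of 0.0413. Between *Eya1*cKO 1 and *Eya1*cKO 2 the gap was wider than for any other called member, although both lay below the controls. Its log2 fold change was -1.23 without *Eya1*cKO 1 and -0.55 without *Eya1*cKO 2, called in both fits, and the call was lost in 7 of the 14 alternatives. *Bub3*, the partner of Bub1 and BubR1, had 4322, 4427, 1942 and 1322 reads (124, 118, 85.9 and 75.4 CPM), a log2 fold change of -0.58 ± 0.12 (SE) and an adjusted *P* of 0.0338. *Ube2c*, the ubiquitin-conjugating enzyme that works with the APC/C, had 5872, 6339, 2258 and 2230 reads (168, 169, 99.9 and 127 CPM), a log2 fold change of -0.58 ± 0.13 (SE) and an adjusted *P* of 0.0365. Its exons share 22.8% of their length with exons of *Tnnc2* on the opposite strand, and the strand setting of the counting was not given, so its counts are less certain. The APC/C activator *Cdc20* (-0.45 ± 0.14) and the checkpoint kinase *Ttk* (-0.35 ± 0.17) did not pass the test, nor did *Fzr1* (-0.11 ± 0.12), which activates the APC/C after mitosis and outside the cycle. The estimate for *Fzr1* lay between -0.25 without *Eya1*cKO 1 and -0.02 without *Eya1*cKO 2, with no call in either. *Cdc20* passed in each fit that left out 1 *Eya1*cKO library, and *Ttk* passed without *Eya1*cKO 1.

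The mitotic kinase group held *Plk1*, *Plk4* and *Aurka*, and of these 3 *Plk1* passed the test. It had 4009, 4385, 1512 and 1172 reads (115, 117, 66.9 and 66.8 CPM), a log2 fold change of -0.79 ± 0.12 (SE) and an adjusted *P* of 0.0107. Its exons share 7.09% of their length with an opposite-strand transcript. *Plk4*, the kinase that starts centriole duplication, had 3236, 3396, 1594 and 1326 reads (92.7, 90.7, 70.5 and 75.6 CPM), a log2 fold change of -0.33 ± 0.13 (SE) and an adjusted *P* of 0.142. *Aurka*, the spindle pole kinase, had a log2 fold change of -0.38 ± 0.21 with *Eya1*cKO libraries that lay far apart, at 54.9 and 35.6 CPM. It missed the threshold with all 4 libraries and without *Eya1*cKO 2 (-0.15), and was called lower without *Eya1*cKO 1 (-0.77, adjusted *P* = 0.000915 by edgeR). *Plk4* passed without *Eya1*cKO 2.

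In the chromosomal passenger complex, which places Aurora B at centromeres and then at the midzone, 3 of 4 members fell. The kinase gene *Aurkb* had 3256, 3598, 1365 and 1066 reads (93.2, 96.1, 60.4 and 60.8 CPM), a log2 fold change of -0.64 ± 0.13 (SE) and an adjusted *P* of 0.0277. *Incenp*, its scaffold, had 8036, 8751, 3529 and 2879 reads (230.1, 234, 156 and 164 CPM), a log2 fold change of -0.54 ± 0.09 (SE) and an adjusted *P* of 0.0145. *Birc5*, which encodes survivin, had 3607, 3564, 1317 and 1040 reads (103, 95.2, 58.3 and 59.3 CPM), a log2 fold change of -0.76 ± 0.13 (SE) and an adjusted *P* of 0.0186. These 3 genes agreed closely within each genotype. *Cdca8*, which encodes borealin, had 3507, 3569, 1858 and 1387 reads (100.4, 95.3, 82.2 and 79.1 CPM) and its smaller difference did not pass the test (log2 fold change -0.28 ± 0.12, adjusted *P* = 0.189). It passed without *Eya1*cKO 1. The complex summed to 527 and 520.3 CPM in the controls and to 357 and 363 CPM in *Eya1*cKO, 68.8% of the control mean.

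At the kinetochore, 4 of 7 members fell, and the median was -0.54. *Cenpa*, the histone variant that marks centromeres, had 3939, 4440, 1832 and 1328 reads (113, 119, 81.1 and 75.7 CPM), a log2 fold change of -0.56 ± 0.12 (SE) and an adjusted *P* of 0.0341. *Cenpe*, the motor that carries chromosomes to the spindle equator, had 12203, 13399, 5808 and 4576 reads (349, 358, 257 and 261 CPM), a log2 fold change of -0.45 ± 0.07 (SE) and an adjusted *P* of 0.0147. *Cenpf*, a protein of the outer kinetochore, had 11607, 12629, 4952 and 4229 reads (332, 337, 219 and 241 CPM), a log2 fold change of -0.54 ± 0.08 (SE) and an adjusted *P* of 0.011. The libraries of the genotypes stood apart for each of these genes. The Ndc80 complex, the microtubule clasp of the kinetochore, has 4 subunits, of which 1 passed. *Spc25* had 3508, 4065, 1458 and 1154 reads (100.5, 109, 64.5 and 65.8 CPM), a log2 fold change of -0.68 ± 0.13 (SE) and an adjusted *P* of 0.0226. *Spc24* had 2171, 2461, 716 and 823 reads (62.2, 65.7, 31.7 and 46.9 CPM) and missed the threshold (log2 fold change -0.73 ± 0.21, adjusted *P* = 0.073). It was called lower at -0.46 without *Eya1*cKO 1, at -1.03 without *Eya1*cKO 2, and with at least 10 counts required in every library. *Nuf2* (-0.17 ± 0.17) and *Ndc80* (-0.09 ± 0.24) overlapped between genotypes, and *Ndc80* stood at 46.8 CPM in one *Eya1*cKO library and 82.2 CPM in the other. The sign for *Ndc80* turned on the library left out, at 0.28 without *Eya1*cKO 1 and -0.53 without *Eya1*cKO 2, and the second of these was called lower. *Nuf2* was called lower without *Eya1*cKO 1 (-0.41) and not without *Eya1*cKO 2 (-0.02). The difference between the subunits was not tested.

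Of 5 spindle motor and microtubule-bundling members, 1 fell. *Tpx2*, which activates Aurora A on spindle microtubules, had 9289, 10576, 4574 and 3136 reads (266, 282, 202 and 179 CPM), a log2 fold change of -0.52 ± 0.10 (SE) and an adjusted *P* of 0.0205. *Prc1*, which bundles the microtubules of the midzone, had 3815, 4318, 2305 and 2190 reads (109, 115, 102 and 125 CPM), a log2 fold change of 0.00 ± 0.13 (SE) and an adjusted *P* of 0.991. The genotypes overlapped for *Prc1*, and a difference of either sign lay within the error. Its exons share 11.1% of their length with *Rccd1* on the opposite strand. *Kif11*, the motor that pushes the spindle poles apart, had only 98, 49, 13 and 8 reads (2.81, 1.31, 0.575 and 0.456 CPM), a log2 fold change of -1.95 ± 0.91 (SE) and an adjusted *P* of 0.197. Per exonic length its control mean was 0.276 RPKM (CPM per kilobase of exon), beside 10.2 RPKM for *Mad2l1*. Whether so few reads measure the expression of this gene was not tested. *Kif2c*, a microtubule depolymerase (-0.40 ± 0.17), and *Kif4*, a chromosome-bound motor (-0.24 ± 0.16), did not pass the test, and *Kif4* shares 15.1% of its exonic length with *Pdzd11* on the opposite strand. Without *Eya1*cKO 2 both were called lower (*Kif2c* at -0.62, *Kif4* at -0.48), and without *Eya1*cKO 1 neither was (-0.21 and -0.03). Without those libraries in turn, *Prc1* stood at -0.16 and 0.14, with no call.

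Of 5 cytokinesis members 1 fell, and the median was -0.30. *Racgap1* of the centralspindlin complex had 5951, 6067, 2902 and 2063 reads (170.4, 162, 128 and 118 CPM), a log2 fold change of -0.43 ± 0.10 (SE) and an adjusted *P* of 0.0483. Its call was lost in 9 of the 14 alternatives, other scalings among them, and DESeq2 called *Ect2* as well. *Kif23*, its motor partner in that complex, had 5965, 6878, 3671 and 2745 reads (171, 184, 162 and 156 CPM), a log2 fold change of -0.15 ± 0.10 (SE) and an adjusted *P* of 0.345. *Ect2*, the exchange factor that activates RhoA at the cleavage site, had 2912, 3031, 1221 and 1034 reads (83.4, 80.9, 54.0 and 58.9 CPM), a log2 fold change of -0.55 ± 0.14 (SE) and an adjusted *P* of 0.0568. The *Eya1*cKO libraries lay below the controls for all 5 genes, and 1 of the 5 passed. *Kif20a* (-0.30 ± 0.11) and *Anln*, which encodes anillin (-0.25 ± 0.12), did not pass the test, and *Kif20a* shares 29.3% of its exonic length with *Cdc23* on the opposite strand. *Ect2* and *Kif20a* passed in each fit that left out 1 *Eya1*cKO library, and *Anln* passed without *Eya1*cKO 2.

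*Top2a* and *Mki67*, which act along the chromosome arms, both fell. *Top2a*, the topoisomerase that untangles sister chromatids, had 29905, 31084, 12276 and 8991 reads (856, 830.1, 543 and 513 CPM), a log2 fold change of -0.67 ± 0.06 (SE) and an adjusted *P* of 0.00209. Its adjusted *P* was the smallest of the members, and the *Eya1*cKO mean was 62.6% of the control mean. *Mki67*, which encodes the Ki-67 protein that coats mitotic chromosomes and marks cycling cells, had 35883, 36781, 16905 and 13630 reads (1028, 982, 748 and 777 CPM), a log2 fold change of -0.40 ± 0.06 (SE) and an adjusted *P* of 0.00979. Within each library, and so without any scaling, there were 0.833, 0.845, 0.726 and 0.660 *Top2a* reads for each *Mki67* read.

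Condensin and cohesin are both built on SMC ATPases. Of 5 condensin members 3 fell, and all 5 had both *Eya1*cKO libraries below both controls, with a median of -0.54. *Smc2*, a core ATPase, had 9624, 10705, 4446 and 3712 reads (276, 286, 197 and 212 CPM), a log2 fold change of -0.46 ± 0.09 (SE) and an adjusted *P* of 0.0208. *Smc4*, the other core ATPase, had 16730, 16907, 7362 and 5527 reads (479, 452, 326 and 315 CPM), a log2 fold change of -0.54 ± 0.07 (SE) and an adjusted *P* of 0.00765. *Ncapd2*, a subunit of condensin I, had 14607, 15614, 6039 and 4587 reads (418, 417, 267 and 261 CPM), a log2 fold change of -0.66 ± 0.07 (SE) and an adjusted *P* of 0.00343. The libraries of these 3 genes lay close together within each genotype. *Ncapg*, also of condensin I, had 3593, 3547, 1126 and 1284 reads (103, 94.7, 49.8 and 73.2 CPM) and missed the threshold with *Eya1*cKO libraries that differed (log2 fold change -0.71 ± 0.18, adjusted *P* = 0.0592). Its exons share 13.4% of their length with *Lcorl* on the opposite strand. It was called lower by DESeq2, with at least 10 counts in every library, without *Eya1*cKO 1 (-0.44) and without *Eya1*cKO 2 (-1.002). *Ncaph* had a log2 fold change of -0.34 ± 0.12 and did not pass the test with all libraries, but passed in each fit that left out 1 *Eya1*cKO library.

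None of the 6 tested cohesin members passed edgeR's test, and the median was -0.22. At an unadjusted *P* under 0.05 there were 3, all lower (*Smc1a*, *Smc3* and *Rad21*), and DESeq2 called *Smc1a* and *Smc3* lower. *Smc1a*, a core ATPase on the X chromosome, had 14411, 14893, 7319 and 6063 reads (413, 398, 324 and 346 CPM), a log2 fold change of -0.28 ± 0.07 (SE) and an adjusted *P* of 0.0645. *Smc3*, its partner, had 12926, 14118, 7374 and 4675 reads (370.1, 377, 326 and 266 CPM), a log2 fold change of -0.33 ± 0.10 (SE) and an adjusted *P* of 0.0969. *Rad21*, the kleisin cut by separase, had 18059, 19039, 10406 and 7511 reads (517, 508, 460.5 and 428 CPM), a log2 fold change of -0.20 ± 0.07 (SE) and an adjusted *P* of 0.111. Each of these 3 genes had both *Eya1*cKO libraries below both controls. The estimate of *Smc3* depended on the library, at -0.50 without *Eya1*cKO 1 and -0.21 without *Eya1*cKO 2, and in both of these fits *Smc1a*, *Smc3* and *Rad21* passed the test. *Rad21* had the highest level per length of all members, at 121 RPKM in the control mean and 105 RPKM in the *Eya1*cKO mean. *Stag1* (-0.18 ± 0.10) and *Stag2* (-0.06 ± 0.08), alternative subunits of the ring, and *Esco2* (-0.24 ± 0.24), the acetyltransferase that locks it in S phase, did not pass. *Esco2* was called lower without *Eya1*cKO 2 (-0.49) and stood at 0.00 without *Eya1*cKO 1, and *Stag2* stood at -0.09 and -0.05 with no call. The meiotic kleisin *Rad21l* had 0, 1, 0 and 0 reads, at or under the limit of 3 reads in every library, and was not tested.

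Within each library, the 5 condensin genes had 0.820, 0.821, 0.640 and 0.673 reads for each cohesin core read. The cohesin core was counted as *Smc1a*, *Smc3*, *Rad21*, *Stag1* and *Stag2* together. Both *Eya1*cKO ratios lay below both control ratios, and the exact permutation test of 2 against 2 cannot pass the threshold. *Mki67* reads per cohesin core read were 0.606, 0.591, 0.511 and 0.553, in the same order. The role groups differed in sum, from 63.6% of the control mean for *Smchd1* and 65.7% for the checkpoint and APC/C members to 80.8% for cytokinesis and 85.5% for cohesin. No difference between role groups was tested.

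**Figure D3:**
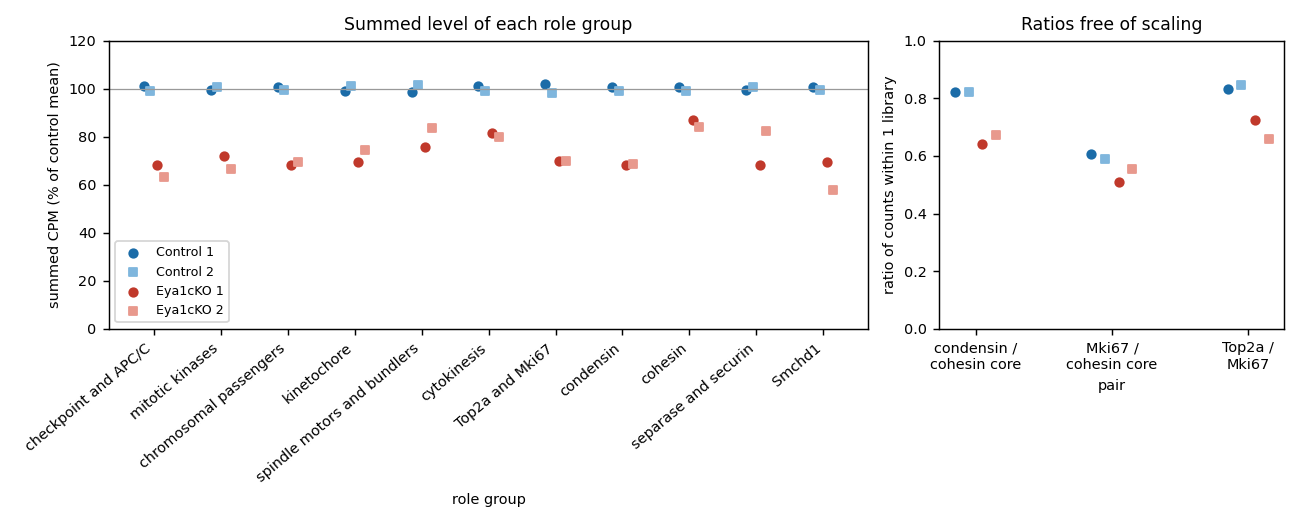
Left, summed CPM of each role group as a percentage of its control mean, with 1 point per library. Right, ratios of counts within 1 library. Cohesin is the group nearest to the control level (85.5%), and condensin reads per cohesin core read are 0.640 and 0.673 in *Eya1*cKO beside 0.820 and 0.821 in the controls.

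Separase and its inhibitor securin set the moment at which sister chromatids separate. *Espl1*, which encodes separase, had 4700, 5281, 1992 and 1864 reads (135, 141, 88.2 and 106 CPM) and fell (log2 fold change -0.51 ± 0.13, adjusted *P* = 0.0494). This call was close to the threshold and was lost in 9 of the 14 alternatives, other scalings among them. *Pttg1*, which encodes securin, had 799, 687, 455 and 421 reads (22.9, 18.3, 20.1 and 24.0 CPM), a log2 fold change of 0.09 ± 0.28 (SE) and an adjusted *P* of 0.867. Its genotypes overlapped, and its estimate was the highest of the members, at 0.21 without *Eya1*cKO 1 and -0.04 without *Eya1*cKO 2, with no call in either. *Smchd1*, which maintains silencing on the inactive X chromosome and at imprinted clusters, had 8510, 9001, 3806 and 2449 reads (244, 240.4, 168 and 139.6 CPM) and fell (log2 fold change -0.64 ± 0.11, adjusted *P* = 0.0153).

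*Xist*, the RNA that coats the inactive X, had 8723, 8350, 703 and 631 reads (249.8, 223, 31.1 and 36.0 CPM), a log2 fold change of -2.83 ± 0.14 (SE) and an adjusted *P* of 0.000195. Of the Y-linked genes tested, *Eif2s3y* rose, with 968, 963, 1294 and 993 reads (27.7, 25.7, 57.3 and 56.6 CPM), a log2 fold change of 1.09 ± 0.18 (SE) and an adjusted *P* of 0.0137, and *Ddx3y*, *Uty* and *Kdm5d* did not pass the test. Of the 5 sex-linked genes 1 fell and 1 rose, by edgeR and by DESeq2. At an unadjusted *P* under 0.05 by edgeR, 1 was lower and 2 were higher. Both *Eya1*cKO libraries lay above both controls for 3 of the 5 and below both for 1. The 3 members on the X chromosome, *Kif4*, *Smc1a* and *Stag2*, summed to 749, 725, 613 and 671 CPM and 0 of the 3 passed edgeR's test (1 had an unadjusted *P* under 0.05, and DESeq2 called *Smc1a*). The part of sex in these values and in those of *Smchd1* was not tested.

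**Figure D4:**
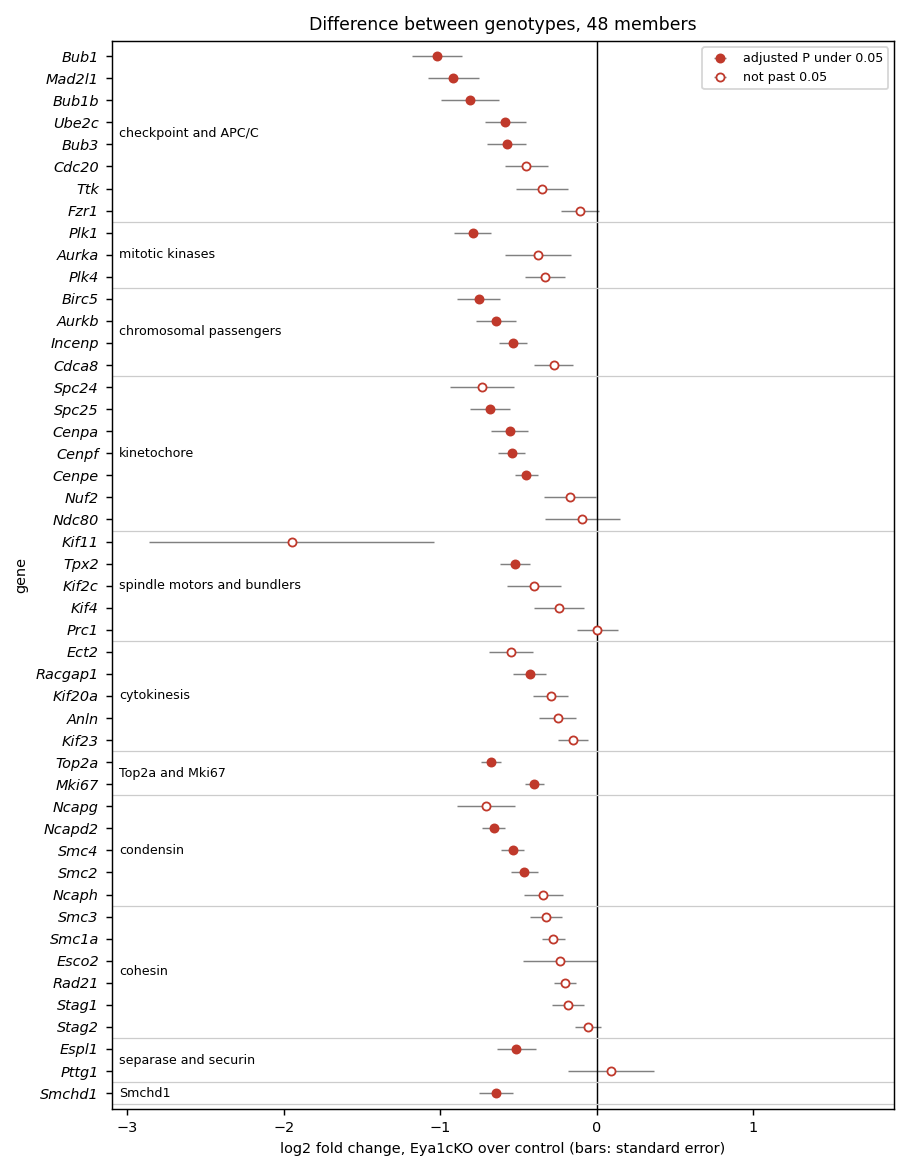
Log2 fold change of *Eya1*cKO over control for the 48 tested members, grouped by role, with bars of 1 standard error from edgeR and filled points for an adjusted *P* under 0.05. All 22 filled points lie left of 0, and all 6 cohesin points are open.

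Further genes of the same machinery were read from lists of their own. Of 100 further kinetochore, checkpoint, spindle, cohesin and condensin genes, 99 were tested, 9 fell and 0 rose, with a median of -0.30 and 85 negative values. At an unadjusted *P* under 0.05, 37 of the 99 were lower and 0 higher, and DESeq2 called 19 lower and 0 higher. The 9 that fell by edgeR are 9.09% of the 99, beside 4.41% of all genes tested. At the kinetochore 2 of 32 fell (6.25%), a share near that of all genes. *Hjurp*, the chaperone that loads Cenpa, had 14891, 15906, 6926 and 5023 reads (426, 425, 306 and 286 CPM), a log2 fold change of -0.52 ± 0.07 (SE) and an adjusted *P* of 0.00884. *Cenpw*, of the inner kinetochore, had 1130, 1058, 249 and 256 reads (32.4, 28.3, 11.0 and 14.6 CPM), a log2 fold change of -1.26 ± 0.29 (SE) and an adjusted *P* of 0.0404. Of 18 checkpoint and APC/C genes 1 fell (5.56%, also near that of all genes), *Fbxo5*, which encodes the APC/C inhibitor Emi1, with 2413, 2338, 742 and 500 reads (69.1, 62.4, 32.8 and 28.5 CPM), a log2 fold change of -1.09 ± 0.18 (SE) and an adjusted *P* of 0.0148. *Anapc1*, a subunit of the APC/C, had 13061, 13504, 6963 and 5387 reads (374, 361, 308 and 307 CPM) and did not pass the test (log2 fold change -0.26 ± 0.07, adjusted *P* = 0.0758). Of the 28 tested spindle genes 3 fell, among them *Ckap5*, a microtubule polymerase, with 12115, 11977, 4171 and 3911 reads (347, 319.9, 185 and 223 CPM), a log2 fold change of -0.72 ± 0.11 (SE) and an adjusted *P* of 0.0105. *Kif15*, a motor that shares the work of Kif11, had 5960, 6482, 2503 and 1735 reads (171, 173, 111 and 98.9 CPM), a log2 fold change of -0.71 ± 0.11 (SE) and an adjusted *P* of 0.0106. Of 21 cohesin and condensin genes 3 fell, among them the condensin II subunit *Ncapg2* with 3684, 4276, 1623 and 1265 reads (106, 114, 71.8 and 72.1 CPM), a log2 fold change of -0.61 ± 0.13 (SE) and an adjusted *P* of 0.0292. *Ctcf*, which stops cohesin on chromatin, had 8456, 8486, 3670 and 3242 reads (242, 227, 162 and 185 CPM), a log2 fold change of -0.44 ± 0.10 (SE) and an adjusted *P* of 0.0412. The genes of these lists with the smallest *P* among positive estimates, *Cenps*, *Cenpt*, *Anapc16*, *Anapc11*, *Kif18b*, *Ckap2*, *Nsmce1* and *Smc1b*, had adjusted *P* from 0.311 to 0.938.

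A list of 13 regulators of G2 and M phase genes held subunits of MuvB and NF-Y, and of these 13 genes 2 fell and 0 rose by edgeR (0 higher at an unadjusted *P* under 0.05 and 0 by DESeq2). *Nfyb*, a subunit of the CCAAT-binding NF-Y, had 3055, 3863, 1014 and 808 reads (87.5, 103, 44.9 and 46.1 CPM), a log2 fold change of -1.07 ± 0.16 (SE) and an adjusted *P* of 0.0102. *Rbbp4*, a subunit of MuvB and of several chromatin complexes, had 11809, 13231, 5597 and 4678 reads (338, 353, 248 and 267 CPM), a log2 fold change of -0.43 ± 0.08 (SE) and an adjusted *P* of 0.022. *Foxm1*, an activator of G2 and M phase genes, had 6731, 7192, 3016 and 2855 reads (193, 192, 133 and 163 CPM) and did not pass the test (log2 fold change -0.39 ± 0.12, adjusted *P* = 0.0849). *Lin37* and *Lin52* of MuvB had positive estimates with adjusted *P* of 0.331 and 0.893.

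Genes that license and copy DNA in S phase make up another part of the cell cycle programme. Of 27 such genes 15 fell and 0 rose by edgeR (0 higher at an unadjusted *P* under 0.05 and 0 by DESeq2), with a median log2 fold change of -0.67, and 25 had both *Eya1*cKO libraries below both controls. *Mcm7*, of the replicative helicase, had 9935, 10725, 3801 and 2722 reads (284, 286, 168 and 155 CPM), a log2 fold change of -0.82 ± 0.09 (SE) and an adjusted *P* of 0.00336. *Pole*, the leading-strand polymerase, had 5791, 6248, 1937 and 1415 reads (166, 167, 85.7 and 80.7 CPM), a log2 fold change of -0.996 ± 0.11 (SE) and an adjusted *P* of 0.0034. *Rfc3*, the gene with the smallest *P* among positive estimates, had an adjusted *P* of 0.393. Their summed level was 4042, 4066, 2554 and 2685 CPM. The lists were not compared by a test.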

How the data were processed

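The authors mapped single-end reads of strand-specific libraries to mm10 with HISAT2 and counted them on Ensembl genes with HTSeq-count. The files were deposited as raw counts per gene. The strand setting of the counting is not given in the sources used here, and the authors' own test was made with DESeq2. Rows for reads on no gene, ambiguous, not aligned or not unique (31.8% to 46.1% of all reads recorded) were left out. Symbols, positions and exonic lengths came from GENCODE M21 (GRCm38), a later annotation than that of the counts.

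The 2 control and 2 *Eya1*cKO libraries were compared with edgeR 4.0.16 in R 4.3.3 (filterByExpr with a minimum of 10, TMM, glmQLFit with legacy = FALSE, glmQLFTest), and *P* values were Benjamini-Hochberg adjusted over 19041 genes at 0.05. Errors of log2 fold changes are standard errors. Simulated counts in which 200 genes differed were used to test the fit. Members, role groups, lists and motifs were chosen with earlier results of these data known. Read counts were printed for members past the threshold, those at or under 3 reads, and, per role, the 2 of largest mean CPM and the one of largest absolute change, and each further list is represented by the 2 lowest *P* values per direction. *Foxm1* and the sex-linked genes were named outside that rule, after their values were seen. Alternatives were other scalings, filters, DESeq2 1.42.0, legacy and robust fits, the study's combined call rule, thinned control counts, a replicate block, and leaving out single libraries.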

Additional observations from a re-analysis of the deposited data

Results flagged for a closer look

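Outside the counts on genes, a larger share of the reads was lost in both *Eya1*cKO libraries than in both control libraries. Reads recorded on no gene were 22.7% in *Eya1*cKO 1 and 20.9% in *Eya1*cKO 2, beside 13.9% and 12.9% in control 1 and control 2. Reads not aligned were 12.9% in *Eya1*cKO 1 and 12.7% in *Eya1*cKO 2, beside 6.32% and 6.69% in the controls. These shares moved with the genotype, and their part in the lower counts of the mitotic genes was not tested.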

How the results depend on the processing

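In the 14 alternatives run, 0 members were called higher, and the median log2 fold change of the members lay between -0.52 and -0.41. The number called lower was 20 with DESeq2's size factors, 19 with library totals alone, 15 with no low-count filter, 26 with at least 10 counts in every library, 26 with DESeq2's Wald test, 16 with legacy and 20 with robust quasi-likelihood, 22 under the combined call rule, and 17 with thinned control counts. Leaving out 1 library at a time gave between 0 and 37. *Espl1* and *Racgap1* lost their calls in 9 of the 14 alternatives, *Bub1b* in 7, and *Bub3* and *Ube2c* in 6. Both fits without a control library lost all 22, whereas both fits without an *Eya1*cKO library held all 22.

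With the replicate number of the labels as a replicate block, 5 members fell (*Cenpf*, *Mki67*, *Ncapd2*, *Smc4* and *Top2a*, all among the 22) and 621 genes were called in all. Libraries of the same number did not deviate together (r = 0.009 over 19041 genes), so the numbers are not read as pairs.

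Over all genes, 1820 calls became 1055 with no low-count filter, 3068 with DESeq2's Wald test, 1096 with the legacy method and 2996 under the combined rule, and between 23 and 7925 with 1 library left out. The sign of *Prc1*, 0.00 as reported, was negative with no filter (-0.0118), with at least 10 counts in every library (-0.0102), without control 1 (-0.0555) and without *Eya1*cKO 2 (-0.155, the range with 1 library left out ending at 0.141). That of *Pttg1* was negative without control 2 (-0.0819) and without *Eya1*cKO 2 (-0.0449), in a range up to 0.231. The causes were not tested. Of the values recomputed for the members whose counts are printed, other than *Rad21l*, 361 kept their direction and their side of the threshold, 86 lost the call and 22 gained it. Few reads limit the precision for *Kif11*, and *Rad21l* could not be compared.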

Other observations

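Relative to *Mki67* reads of the same library, the members did not all move together. For every 100 *Mki67* reads, and with both controls given first, *Bub1* had 12.1, 11.02, 6.83 and 8.31 reads, and *Plk1* had 11.2, 11.9, 8.94 and 8.60. *Prc1*, the bundler of the spindle midzone, had 10.6, 11.7, 13.6 and 16.1, and *Kif23*, the motor of centralspindlin, had 16.6, 18.7, 21.7 and 20.1. Of 47 members set against *Mki67* in this way, 20 had both *Eya1*cKO ratios below both control ratios, 12 had both above and 15 overlapped. *Mki67* and the named genes were chosen after their values were seen, all 47 ratios share the *Mki67* counts, and no ratio was tested.

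Within the tested members, the *Eya1*cKO libraries differed from each other most for *Ndc80* (absolute log2 ratio 0.81), *Bub1b* (0.69), *Aurka* (0.62), *Spc24* (0.57) and *Ncapg* (0.55). Among these, *Ndc80*, *Spc24* and *Ncapg* were higher in *Eya1*cKO 2, and *Bub1b* and *Aurka* were higher in *Eya1*cKO 1. In the controls the same 5 genes differed by 0.02 to 0.12.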
